A study of Homo sapiens with 10 samples.

Results

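The comparison described here sets the EAPP mutant of Krüppel-like factor 11 (KLF11) against wild type KLF11 in Panc1 cells, an established epithelial line from a human pancreatic carcinoma. It rests on 4 of the 10 arrays of the study, the 2 labelled KLF11-EAPP and the 2 labelled KLF11. The other arrays carry empty vector, KLF11-A347S or KLF11-486 (Δ486), with 2 arrays each. All 5 groups received adenovirus at a multiplicity of infection of 150, and RNA was harvested after 48 h. Every KLF11 protein carried a His-Xpress epitope tag and was made from a vector backbone named Ad5CMV, which the empty vector cells received without an insert. RNA was pooled from biological triplicates and hybridized in technical duplicate to Affymetrix Human Gene 1.0 ST arrays, although the sample titles number the arrays as biological replicates. The p-values below therefore measure the spread between arrays, which may be technical and may leave out the spread between cultures.

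KLF11 is a zinc finger transcription factor that binds GC-rich promoter elements and is known for its part in growth control and in metabolism, including insulin regulation in the pancreas. Through a short N-terminal stretch it recruits the scaffold protein Sin3, which carries the histone deacetylases HDAC1 and HDAC2 to a promoter. Removal of acetyl groups from histones is generally linked to lower transcription. The EAPP mutation places proline residues in this stretch and breaks the contact with Sin3. Setting the mutant against wild type shows which transcript levels differ between these forms of the protein. Whether the mutant keeps its other functions was not tested, and direct and indirect effects cannot be told apart.

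The level of KLF11 itself did not pass the test between the compared groups. The KLF11 cluster read 8.82 and 8.85 on the log2 scale in the wild type arrays, 8.78 and 8.68 in the EAPP arrays, and 8.37 and 7.75 with empty vector. All 4 wild type and EAPP arrays lay above both empty vector arrays. EAPP minus wild type was -0.11 ± 0.16 (SE, n = 2 against 2, adjusted p = 0.742). Wild type minus empty vector was 0.77 and passed the test (adjusted p = 0.00938 in limma), while EAPP minus empty vector was 0.67 and did not (adjusted p = 0.282). Whether the cluster reads the endogenous gene, the transduced copy or both could not be settled. The paper reports a Western blot with similar overexpression of the tagged wild type and mutant proteins.

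Levels are given on the log2 scale for transcript clusters, the groups of probes with which the array reads a gene. A difference is the EAPP mean minus the wild type mean on this scale, so a positive difference means a higher level with the mutant. Of 28869 clusters on the array, 20961 carry a gene symbol and were tested with limma. A cluster was called where the adjusted p was under 0.05 and the fold at least 1.5. The array medians ran from 6.81 to 6.87 and the correlation within a group from 0.996 to 0.997. These values describe whole arrays and do not show how far a single array bears on the calls.

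More clusters were lower than higher with the mutant. The test called 160 clusters higher (0.763% of those tested) and 367 lower (1.75%). Of these, 15 were higher and 69 lower by at least 2-fold. Counted over 18377 genes, each by its brightest cluster, 140 genes were higher (0.762%) and 336 lower (1.83%). The median difference over all genes was 0.03. All 527 called clusters had both EAPP arrays beyond both wild type arrays, against 53.1% of all clusters. Leaving out KLF11 replicate 1 reduced the lower clusters to 230, while 160 were then higher. Beside the threshold, PLCB3 and MAGOH lay just inside at 0.585 and -0.5852, and CHKA and GRN just outside at 0.5837 and -0.5848.

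**Figure D1:**
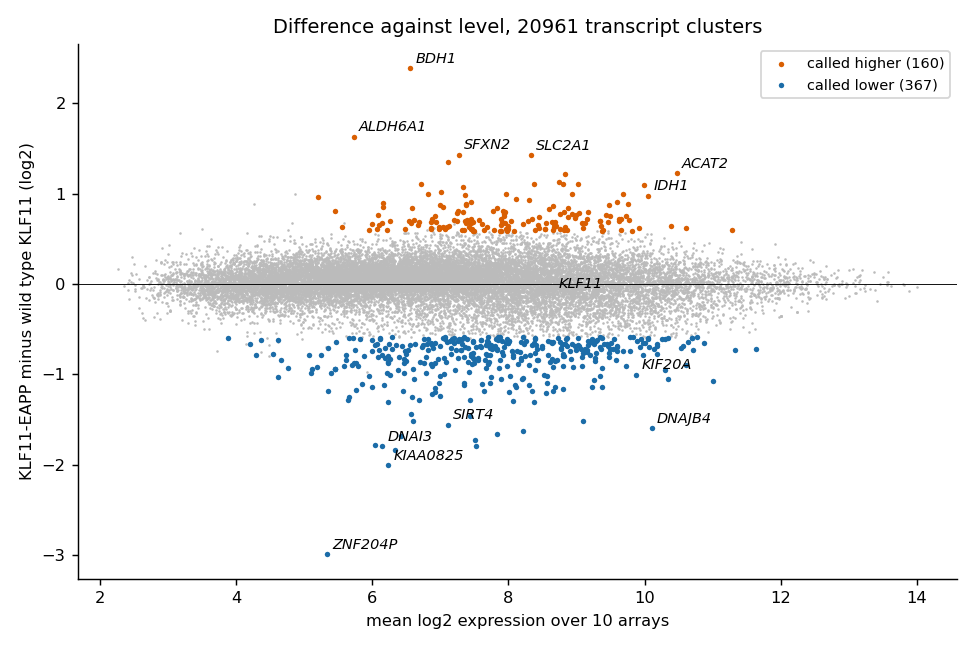
Difference between KLF11-EAPP and wild type KLF11 (vertical axis, log2) against the mean log2 expression over 10 arrays (horizontal axis), with 1 point for each of 20961 transcript clusters. The 160 clusters called higher are orange and the 367 called lower are blue, and BDH1 and ZNF204P lie farthest from 0.

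The largest rise was in BDH1, the mitochondrial enzyme that interconverts the ketone bodies acetoacetate and 3-hydroxybutyrate. It read 5.65 and 5.90 in the wild type arrays, 8.06 and 8.27 in the EAPP arrays, and 7.03 and 6.92 with empty vector. The 3 groups did not overlap, and EAPP was the highest of them. The difference was 2.39 ± 0.10 (SE, n = 2 against 2), a fold of 5.24 with an adjusted p of 2.05e-05. ALDH6A1, a dehydrogenase of valine breakdown, followed with 5.10 and 4.90 in wild type, 6.58 and 6.68 with EAPP, and 5.87 and 5.75 with empty vector. Its difference was 1.63 ± 0.10 (adjusted p = 0.000179), and again EAPP lay above the other 2 groups. A second and dimmer cluster of ALDH6A1 differed by only 0.21 (adjusted p = 0.149).

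SFXN2, a sideroflexin of the mitochondrial membrane, read 6.65 and 6.97 in wild type and 8.22 and 8.27 with EAPP (1.43 ± 0.11, adjusted p = 0.000274). SLC2A1, the glucose transporter GLUT1, read 7.58 and 7.85 in wild type and 9.06 and 9.22 with EAPP (1.43 ± 0.11, adjusted p = 0.000274). Empty vector was close to EAPP for both, at 8.25 and 8.20 for SFXN2 and 8.95 and 9.08 for SLC2A1. EPB41, which encodes protein 4.1 of the membrane skeleton, rose from 6.48 and 6.76 to 7.98 and 7.96, a difference of 1.35 ± 0.10. ACAT2, the cytosolic thiolase that makes acetoacetyl-CoA for sterol synthesis, rose from 10.09 and 10.05 to 11.30 in both EAPP arrays, a difference of 1.23 ± 0.08. The largest rises were taken only from genes in which no wild type array reached an EAPP array.

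The rest of the 12 largest rises lay between 1.09 and 1.22. They were BCKDHB and MMUT of amino acid breakdown, PIMREG, a gene of mitotic cells, PCYT2, an enzyme of phosphatidylethanolamine synthesis, ADI1 of methionine salvage, and RCN2, a calcium-binding protein of the endoplasmic reticulum. RCN2 read 9.63 and 9.59 in wild type and 10.68 and 10.73 with EAPP. PCYT2 was read by 2 clusters, which differed by 1.11 and 1.13. All 12 kept their call when any 1 of the 4 arrays was left out.

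**Figure D2:**
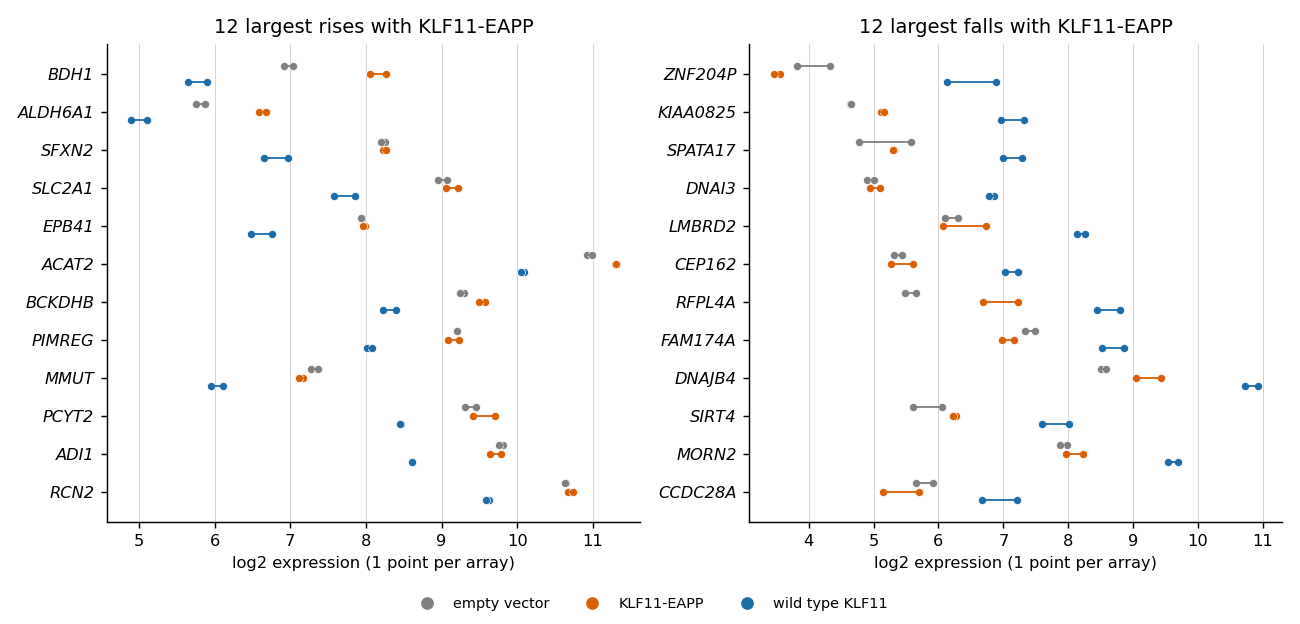
Log2 expression (horizontal axis) of the 12 genes with the largest rise and the 12 with the largest fall with KLF11-EAPP, with 1 point for each array of empty vector (grey), KLF11-EAPP (orange) and wild type KLF11 (blue) and a line joining the 2 arrays of a group. Only genes whose EAPP arrays do not overlap the wild type arrays were eligible. In BDH1, ALDH6A1, EPB41, ACAT2, BCKDHB and RCN2 the EAPP arrays also lie above both empty vector arrays.

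Enzymes that break down branched-chain amino acids, propionate and ketone bodies held the largest share of higher genes among the 32 gene lists examined. The lists were chosen with earlier results of these data known, and this list holds BDH1 and ALDH6A1, the largest rises. Its share and rank are therefore a description. Of its 30 measured genes, 10 were higher with the mutant (33.3%, against 0.762% of all genes) and 0 lower. Over all genes 1.83% were lower, and these shares over all genes are the background for the calls in every list. The list's median difference was 0.40, against 0.03 over all genes. At an unadjusted p under 0.05, 18 were higher and 4 lower. That cut alone was passed, in either direction, by 5276 of the 20961 clusters tested, which is the background for such counts in every list. Whatever their p, 57.8% of all genes had a positive difference. Whichever of the 4 arrays was left out, 10 or 11 genes of the list were called higher.

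Leucine, valine and isoleucine are first transaminated and then decarboxylated by the branched-chain ketoacid dehydrogenase complex. BCKDHB, its E1 beta subunit, read 8.39 and 8.23 in wild type, 9.58 and 9.49 with EAPP, and 9.30 and 9.24 with empty vector (1.22 ± 0.08, adjusted p = 0.000182). BCKDHA, the E1 alpha partner, differed by -0.11 (adjusted p = 0.574) and DBT, the E2 subunit, by 0.57 (adjusted p = 0.0398). PPM1K, the phosphatase that activates the complex, was 0.63 higher, while its kinase BCKDK differed by -0.10 (adjusted p = 0.484). In this and the other lists, members beyond the 4 with the smallest p and the key members were picked for naming after their values were seen.

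Further down the leucine branch, IVD read 7.96 and 8.10 in wild type and 8.99 and 8.93 with EAPP, a difference of 0.93. The 2 subunits of methylcrotonyl-CoA carboxylase, MCCC1 and MCCC2, were higher by 0.76 and 0.70. On the isoleucine branch ACADSB was 0.79 higher. Propionyl-CoA, to which isoleucine and valine lead, is carboxylated and then isomerized. PCCB, a subunit of the carboxylase, was 0.88 higher, whereas its partner PCCA differed by 0.38 (adjusted p = 0.113). MMUT, the mutase that makes succinyl-CoA, read 6.12 and 5.95 in wild type, 7.16 and 7.12 with EAPP, and 7.27 and 7.36 with empty vector (1.11 ± 0.10, adjusted p = 0.000392). The racemase MCEE between them differed by -0.49 (adjusted p = 0.0620) and the cytosolic transaminase BCAT1 by -0.41 (adjusted p = 0.0288, under the fold required).

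Genes that bring pyruvate into mitochondria or act in the citric acid cycle were higher in small number, though above the share over all genes (0.762%). In the pyruvate list 2 of 15 genes were higher (13.3%) and 0 lower, with a median of 0.16. MPC1, which forms part of the carrier that takes pyruvate into mitochondria, read 6.71 and 6.93 in wild type, 7.88 and 7.57 with EAPP, and 8.48 and 8.46 with empty vector (0.90 ± 0.13, adjusted p = 0.00334). EAPP thus lay between the other 2 groups. PC, pyruvate carboxylase, read 6.58 and 6.68 in wild type and 7.56 and 7.45 with EAPP (0.88 ± 0.08, adjusted p = 0.000392).

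In the citric acid cycle list 3 of 26 genes were higher (11.5%) and 0 lower, although the list's median was -0.05. IDH1, the cytosolic isocitrate dehydrogenase, read 9.78 and 9.77 in wild type, 10.70 and 10.80 with EAPP, and 11.21 and 11.19 with empty vector (0.98 ± 0.08, adjusted p = 0.000392). Its mitochondrial counterpart IDH2 read 9.33 and 9.29 in wild type and 10.16 and 10.28 with EAPP (0.91 ± 0.09, adjusted p = 0.000588). KGD4, which belongs to the oxoglutarate dehydrogenase complex, read 5.77 and 5.96 in wild type and 6.98 and 6.29 with EAPP (0.77 ± 0.20, adjusted p = 0.0416). Its EAPP arrays lay far apart, and the call was lost without EAPP replicate 1 (0.42, adjusted p = 0.165), without KLF11 replicate 1 (adjusted p = 0.223) and without KLF11 replicate 2 (adjusted p = 0.0889). It was also lost when arrays were centred, quantile normalized or loess normalized (adjusted p = 0.0611 to 0.0766).

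Of 34 genes of glucose uptake and glycolysis, 4 were higher (11.8%) and 1 lower, with a median of 0.13. Beside SLC2A1 these were ALDOC, an aldolase (0.98 ± 0.10, adjusted p = 0.000712), GYS1, glycogen synthase (0.88 ± 0.08, adjusted p = 0.000533), and HK2, a hexokinase (0.64, adjusted p = 0.00541). ALDOC read 7.14 and 7.11 in wild type and 8.25 and 7.97 with EAPP, and GYS1 read 7.02 and 6.92 in wild type and 7.79 and 7.91 with EAPP. The lower gene was SLC2A13, a myo-inositol transporter, at -0.65 (adjusted p = 0.00403). It was not called without EAPP replicate 1 (-0.55).

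Sterol and fatty acid synthesis showed 5 of 37 genes higher (13.5%) and 1 lower, with a median of 0.24. The higher ones were ACAT2, the sterol enzymes TM7SF2 (0.75), LSS (0.65) and DHCR7 (0.64), and FASN, fatty acid synthase (0.60). DHCR7 read 10.16 and 10.28 in wild type and 10.84 and 10.88 with EAPP, and FASN 8.54 and 8.70 in wild type and 9.22 and 9.21 with EAPP. GPAM, which starts glycerolipid synthesis, was lower, from 7.97 and 7.92 to 7.24 and 7.07 (-0.79 ± 0.10, adjusted p = 0.00156). Without KLF11 replicate 1 only 2 of the list were called higher, and DHCR7 (0.58) and FASN (0.52) were not among them. FASN also lost its call when arrays were centred on their median (0.56) or loess normalized (0.58).

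Fatty acid oxidation and peroxisome genes went both ways, with 4 of 45 higher (8.89%), 2 lower (4.44%) and a median of -0.01. CPT1A, which controls fatty acid entry into mitochondria, read 9.24 and 9.28 in wild type and 9.86 and 10.03 with EAPP (0.69 ± 0.09, adjusted p = 0.00177). HSD17B4, a peroxisomal oxidation enzyme, was 0.75 higher (adjusted p = 0.00180). EHHADH of the same organelle was 0.66 higher, and the transcription factor PPARA 0.61. PEX3, needed to form peroxisomes, fell from 9.35 and 9.17 to 8.44 and 8.24 (-0.92 ± 0.12, adjusted p = 0.00177). ETFDH, which passes electrons to the respiratory chain, was lower (-0.62, adjusted p = 0.0117), and was not called without EAPP replicate 2 (-0.49) or KLF11 replicate 1 (-0.47). The higher genes of the list numbered 2 without EAPP replicate 1.

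Among mitochondrial carriers and sideroflexins 4 of 41 were higher (9.76%) and 1 lower, with a median of 0.11. SLC25A33, a pyrimidine nucleotide carrier, read 8.91 and 8.86 in wild type and 9.66 and 9.54 with EAPP (0.72 ± 0.08, adjusted p = 0.000940). SLC25A1, the citrate carrier, was 0.64 higher, and was not called without EAPP replicate 2 (0.57). The uncoupling protein UCP2 was 0.59 higher. SLC25A14, another member of the uncoupling protein family, was lower (-0.70 ± 0.10, adjusted p = 0.00317).

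Enzymes of tryptophan, ornithine and amine breakdown were higher in a few cases, though above the share over all genes (0.762%). Of 17 kynurenine and aminotransferase genes, 2 were higher (11.8%) and 0 lower, with a median of 0.10. KYAT3, a kynurenine aminotransferase, read 7.02 and 6.84 in wild type, 8.01 and 7.99 with EAPP, and 8.5 and 8.38 with empty vector (1.07 ± 0.08, adjusted p = 0.000288). OAT, ornithine aminotransferase, was 0.60 higher (adjusted p = 0.00133), and was not called without EAPP replicate 1 (0.57) or KLF11 replicate 2 (0.58), nor with arrays centred on their median (0.57). Of 20 genes of biogenic amine degradation, 2 were higher (10%) and 0 lower, with a median of 0.12. They were the aldehyde dehydrogenases ALDH7A1 (0.88 ± 0.10, adjusted p = 0.00138) and ALDH1B1 (0.79 ± 0.11, adjusted p = 0.00248).

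**Figure D3:**
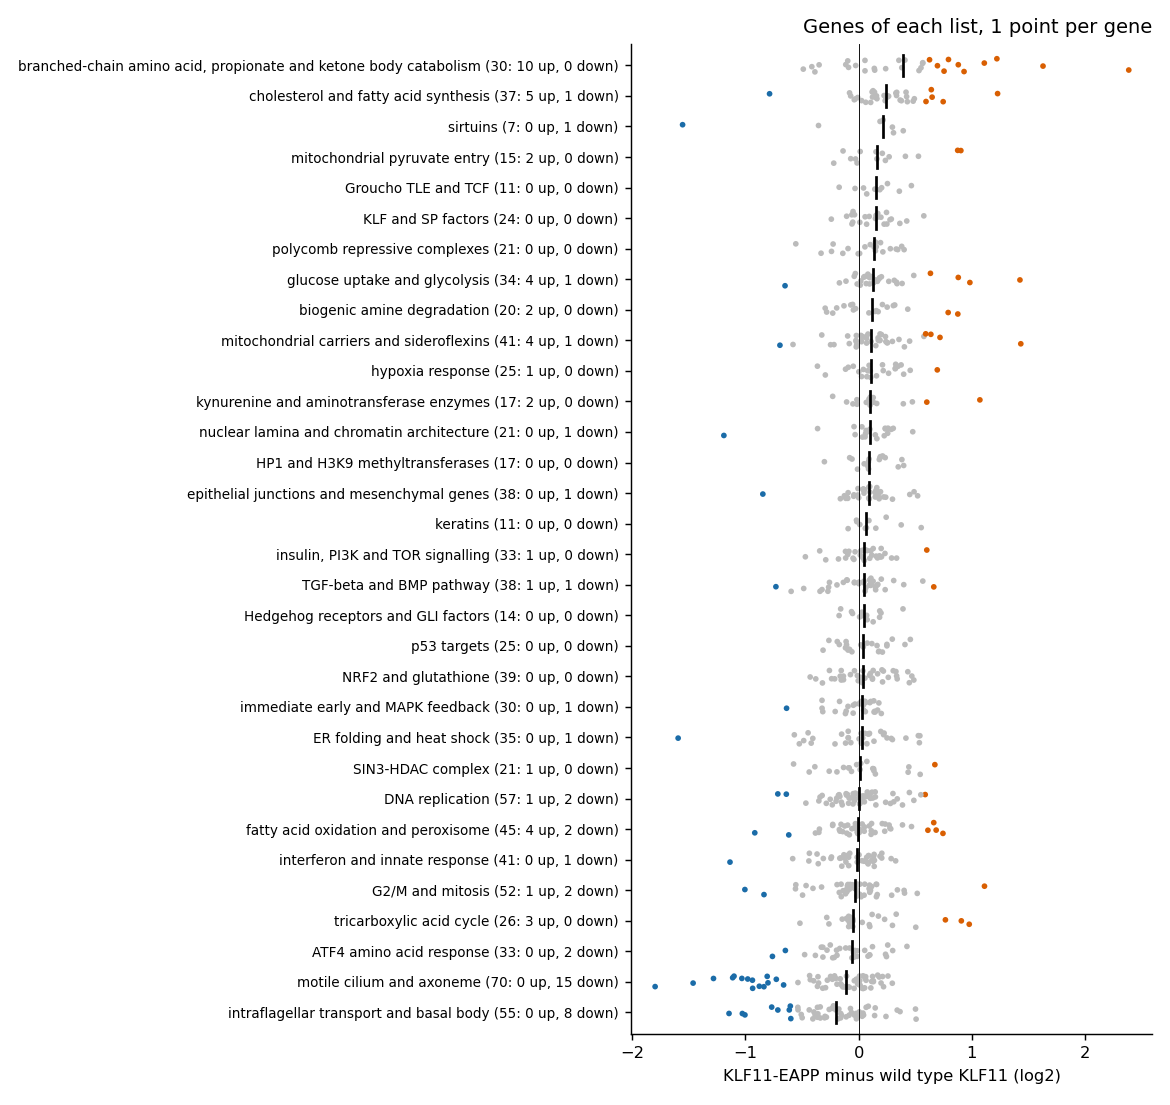
Difference between KLF11-EAPP and wild type KLF11 (horizontal axis, log2) for each measured gene of the 32 lists, 1 point per gene, with called genes in orange (higher) or blue (lower), all others in grey, and a black bar at the list's median. The number of genes measured and called stands beside each name, and the list of branched-chain amino acid, propionate and ketone body breakdown has the highest median and that of intraflagellar transport the lowest.

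On the falling side the largest change was in ZNF204P, a pseudogene of the zinc finger family. It read 6.88 and 6.13 in wild type, 3.56 and 3.46 with EAPP, and 3.82 and 4.33 with empty vector (-2.99 ± 0.27, adjusted p = 0.000412). The wild type arrays lay apart from each other, but both were far above every EAPP and empty vector array. KIAA0825, a gene of little-known function, read 7.32 and 6.96 in wild type and 5.11 and 5.17 with EAPP (-2.00 ± 0.13, adjusted p = 0.000182). Its 2 other clusters were lower as well, by -1.78 and -1.18. SPATA17, known from the testis, read 7.29 and 7.0 in wild type and 5.32 and 5.30 with EAPP (-1.83 ± 0.22, adjusted p = 0.00146).

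Among the largest falls were 3 further genes. DNAI3, a dynein intermediate chain, read 6.86 and 6.79 in wild type, 5.10 and 4.94 with EAPP, and 4.90 and 5.0 with empty vector (-1.80 ± 0.12, adjusted p = 0.000195). CEP162, a protein of the ciliary transition zone, read 7.23 and 7.02 in wild type and 5.60 and 5.27 with EAPP (-1.69 ± 0.16, adjusted p = 0.000533). MORN2 read 9.69 and 9.54 in wild type and 8.23 and 7.96 with EAPP (-1.52 ± 0.14, adjusted p = 0.000533). For these genes the EAPP arrays sat beside the empty vector arrays, as the plot of single arrays shows.

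Other large falls were in LMBRD2, a membrane protein (-1.79 ± 0.20), RFPL4A (-1.66 ± 0.19), FAM174A (-1.62 ± 0.13) and CCDC28A (-1.51 ± 0.22). RFPL4A has a near-identical copy in the genome, so its reading is uncertain. It read 8.80 and 8.44 in wild type, 7.22 and 6.69 with EAPP, and 5.49 and 5.65 with empty vector, and so lay between the other 2 groups. DNAJB4, an HSP40 co-chaperone, showed the same order, with 10.93 and 10.72 in wild type, 9.42 and 9.04 with EAPP, and 8.51 and 8.58 with empty vector (-1.60 ± 0.13, adjusted p = 0.000375). It was the only one called of 35 genes of folding and heat shock (2.86%, against 1.83% of all genes lower), whose median was 0.03. All 12 of the largest falls kept their call when any 1 of the 4 arrays was left out, but CCDC28A lost it in the linear model without moderation (adjusted p = 0.0513).

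Genes of the motile cilium formed the list with the most members lower. Of 70 measured, 15 were lower with the mutant (21.4%, against 1.83% of all genes) and 0 higher. This list too was chosen with earlier results of these data known, so its share and rank are a description. The median was -0.11. At an unadjusted p under 0.05, 26 were lower and 4 higher. Leaving out any 1 of the 4 arrays gave 13 to 15 lower genes, and a linear model without moderation gave 8. Beside DNAI3, the 4 with the smallest p included ROPN1L, a radial spoke protein (8.01 and 7.84 in wild type, 6.41 and 6.52 with EAPP, -1.46 ± 0.11, adjusted p = 0.000274). DRC9 of the nexin-dynein regulatory complex read 7.87 and 7.61 in wild type and 6.68 and 6.6 with EAPP (-1.10 ± 0.11, adjusted p = 0.000533). KIF9, a kinesin of the axoneme, read 6.98 and 6.75 in wild type and 6.01 and 5.76 with EAPP (-0.98 ± 0.11, adjusted p = 0.000981). The others ran from -1.28 in CFAP69 to -0.66 in CFAP91.

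Intraflagellar transport carries cargo along the cilium from the basal body, and its list had 8 of 55 genes lower (14.5%) and 0 higher. The median was -0.20, the lowest of the 32 lists. At an unadjusted p under 0.05, 30 were lower and 5 higher. TMEM67, a transition zone protein, read 8.98 and 8.83 in wild type and 7.99 and 7.81 with EAPP (-1.0 ± 0.10, adjusted p = 0.000533). IFT20, a transport subunit, read 8.18 and 7.86 in wild type and 6.93 and 7.05 with EAPP (-1.03 ± 0.13, adjusted p = 0.00159). CLUAP1 (-0.60) and IFT80 (-0.61), further transport subunits, were also lower. Without EAPP replicate 2, 5 genes of the list were called, without CLUAP1 (-0.58) and IFT80 (-0.56). Without KLF11 replicate 1, 5 genes were called lower and 1 higher, again without CLUAP1 (-0.58).

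Among 7 sirtuins, deacylases that use NAD, 1 was lower (14.3%, against 1.83% of all genes) and 0 higher. SIRT4, a mitochondrial member, read 8.01 and 7.60 in wild type, 6.27 and 6.23 with EAPP, and 6.05 and 5.60 with empty vector (-1.56 ± 0.17, adjusted p = 0.000940). No array of EAPP or empty vector came near the wild type arrays. The list's median was 0.22. At an unadjusted p under 0.05, 5 members were higher, with differences up to 0.39, and 2 were lower, SIRT4 among them. At an adjusted p under 0.05 with no fold, 3 were higher and 2 lower.

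Zinc finger genes with a ZNF symbol were counted after the largest falls had been seen. Of 493 measured, 49 were lower (9.94%, against 1.83% of all genes) and 1 higher (0.203%, against 0.762%), with a median of -0.05. ZNF615 read 6.79 and 6.57 in wild type and 5.53 and 5.21 with EAPP, a difference of -1.31. ZNF284 read 7.92 and 7.86 in wild type and 6.75 and 6.45 with EAPP, a difference of -1.29. The exception was ZNF654, at 0.71 (adjusted p = 0.0391). Genes of this family are similar in sequence, and how far their probes share signal was not tested.

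The level of the proteins that KLF11 recruits was examined too. Of 21 genes of the Sin3-HDAC complex, 1 was higher (4.76%, against 0.762% of all genes) and 0 lower. The higher gene was SAP130, a structural subunit, which read 8.27 and 8.22 in wild type and 8.95 and 8.89 with EAPP (0.67 ± 0.07, adjusted p = 0.000639). The list's median difference was 0.01, and its members ran from -0.57 to 0.67. At an adjusted p under 0.05 with no fold, 4 were higher and 2 lower. Of the higher ones, HDAC1 (0.44, adjusted p = 0.00473) and SIN3A (0.44, adjusted p = 0.00886) passed the adjusted p but not the fold. HDAC2 differed by 0.07 (adjusted p = 0.584) and SIN3B by 0.13 (adjusted p = 0.398). Of 17 HP1 and H3K9 methyltransferase genes 0 were called, with 5 higher and 1 lower at an unadjusted p under 0.05 in limma. Among them CBX5 (HP1 alpha) differed by 0.09, EHMT2 by 0.35 and SUV39H1 by 0.24.

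Of 24 KLF and SP factors 0 were called, with 6 higher and 0 lower at an unadjusted p under 0.05. Among all 20961 clusters tested, 5276 passed that cut in either direction, and 57.8% of all genes had a positive difference. KLF9, KLF10 and KLF13, close relatives of KLF11, differed by 0.15, 0.20 and 0.29, with adjusted p of 0.266, 0.171 and 0.209. TLE4, a Groucho corepressor, read 6.59 and 6.48 in wild type and 6.61 and 6.12 with EAPP (-0.17, adjusted p = 0.520), so the groups overlapped. Without EAPP replicate 2 its difference was 0.07.

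Signalling and stress lists held few called genes, to be set against 0.762% higher and 1.83% lower over all genes. In the TGF-beta and BMP pathway, 1 of 38 was higher (2.63%) and 1 lower (2.63%). TGFBR1, a TGF-beta receptor, read 7.43 and 7.47 in wild type and 8.11 and 8.12 with EAPP (0.66 ± 0.08, adjusted p = 0.00143). BAMBI, a decoy receptor that damps the pathway, fell from 6.81 and 6.53 to 6.07 and 5.80 (-0.73 ± 0.14, adjusted p = 0.0100), and was not called without EAPP replicate 2 (-0.60, adjusted p = 0.0764) or KLF11 replicate 1 (-0.59, adjusted p = 0.0928). SMAD7, an inhibitor of the pathway and a known KLF11 target, differed by -0.27 (adjusted p = 0.270).

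In the insulin, PI3K and TOR list 1 of 33 was higher (3.03%, against 0.762% of all genes) and 0 lower. The higher gene was PIK3R1, the regulatory subunit of PI3-kinase (0.60, adjusted p = 0.00439). Its call was lost without EAPP replicate 1 (0.53) and without KLF11 replicate 1 (0.58), and when arrays were centred, quantile normalized or loess normalized. DDIT4, an inhibitor of TOR, differed by 0.12 (adjusted p = 0.494), with 8.27 and 8.02 in wild type, 8.31 and 8.22 with EAPP, and 9.11 in both empty vector arrays. Without KLF11 replicate 2 its difference was -0.0005. Here the mutant sat with wild type, away from empty vector. In the amino acid response driven by ATF4, 2 of 33 were lower (6.06%, against 1.83% of all genes) and 0 higher. They were ASNS, asparagine synthetase (-0.65, adjusted p = 0.00446), and SLC7A11, the cystine transporter (-0.76, adjusted p = 0.0164). Neither was called without EAPP replicate 2 (-0.58 and -0.53) or without KLF11 replicate 1 (-0.53 and -0.60).

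Cell cycle lists held a few called genes. Of 52 G2/M genes, 1 was higher (PIMREG, 1.92%) and 2 lower (3.85%), against 0.762% and 1.83% of all genes. KIF20A, a kinesin of cytokinesis, fell from 10.26 and 10.22 to 9.33 and 9.14 (-1.01 ± 0.08, adjusted p = 0.000392). CENPE, a kinetochore kinesin, fell by 0.84 on the log2 scale, from 8.55 and 8.45 to 7.88 and 7.45, and was not called without KLF11 replicate 1 (-0.79, adjusted p = 0.0526). Of 57 replication genes, 1 was higher (1.75%) and 2 lower (3.51%). POLD2 was the higher one (0.59), and ORC5 (-0.71) and GINS3 (-0.64) were the lower ones. POLD2 was not called without EAPP replicate 2 (0.56) or KLF11 replicate 1 (0.56) or with arrays centred on their median (0.55), nor GINS3 without EAPP replicate 1 (-0.56) or KLF11 replicate 1 (-0.49).

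A few further lists held a lone called gene, 2.44% to 4.76% of each list. The shares over all genes were 0.762% higher and 1.83% lower. BNIP3, a mitochondrial protein induced in hypoxia, was higher by 0.70 (adjusted p = 0.000639) among 25 hypoxia genes. SAMHD1, which breaks down deoxynucleotides, fell from 9.83 and 9.74 to 8.78 and 8.52 (-1.14 ± 0.11, adjusted p = 0.000639) among 41 interferon genes. HMGN5, a nucleosome-binding protein, fell from 7.5 and 7.32 to 6.46 and 5.98 (-1.19 ± 0.16, adjusted p = 0.00216) among 21 lamina and chromatin genes. CLDN1, a tight junction protein, fell from 9.20 and 8.89 to 8.32 and 8.07 (-0.85 ± 0.12, adjusted p = 0.00297) among 38 junction and mesenchymal genes. HBEGF, a growth factor of the EGF family, was lower (-0.64, adjusted p = 0.00577) among 30 immediate early genes, and was not called without KLF11 replicate 1 (-0.54, adjusted p = 0.0611).

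In 8 lists with 162 genes, limma called 0: KLF and SP factors, HP1 and H3K9 methyltransferases, keratins, Hedgehog, NRF2 and glutathione, p53 targets, polycomb complexes, and Groucho TLE and TCF. At an unadjusted p under 0.05, 43 of these were higher and 13 lower, all with differences between -0.56 and 0.58. The same cut was passed in either direction by 5276 of all 20961 clusters tested. Whatever their p, 57.8% of all genes had a positive difference, so a lean upward is not particular to these lists. KRT19, a keratin of ductal cells, was the highest keratin, with 9.81 and 9.87 in wild type and 10.39 in both EAPP arrays (0.55 ± 0.13, adjusted p = 0.0278), short of the fold required. Markers of other cell types were counted as well, since in bulk RNA fewer cells of a type and less RNA per cell cannot be told apart. Over 6 marker lists with 25 genes limma called 0, with 2 higher and 0 lower at an unadjusted p under 0.05. The mean level of 5 markers of ductal epithelium was 10.01 and 10.10 in the wild type arrays and 10.19 and 10.25 in the EAPP arrays. The acinar, endocrine, fibroblast, leukocyte and endothelial lists had means of 4.88 to 5.73 in the wild type arrays.

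The 6 arrays that take no part in the difference allow the called clusters to be placed among the other groups. Over the 160 higher clusters the median level was 7.69 in wild type, 8.39 with EAPP, 8.45 with empty vector, 7.68 with Δ486 and 7.49 with A347S. Over the 367 lower clusters it was 8.06 in wild type, 7.24 with EAPP, 7.26 with empty vector, 8.09 with Δ486 and 8.27 with A347S. In both sets the mutant's median thus lay beside that of empty vector, and the medians of Δ486 and A347S lay beside or beyond that of wild type. The clusters were chosen by the wild type and EAPP arrays, so these medians are a description.

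**Figure D4:**
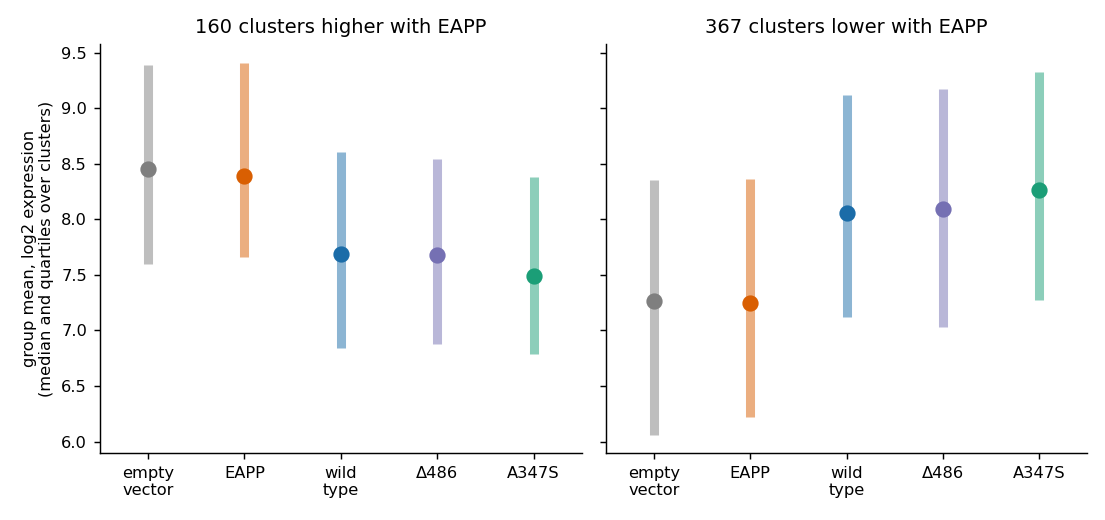
Levels of the 160 clusters called higher (left) and the 367 called lower (right) with KLF11-EAPP in each of the 5 groups, as log2 group means (vertical axis) with the median over clusters as a dot and the quartiles as a bar. The EAPP dots sit at the height of empty vector (8.39 and 8.45 on the left, 7.24 and 7.26 on the right), and those of Δ486 and A347S near wild type.

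A direct comparison of EAPP with empty vector, which uses the same EAPP arrays, called 1 cluster higher (0.00477% of those tested) and 0 lower (0%). That cluster was BDH1, 1.19 above empty vector (adjusted p = 0.0127). ALDH6A1 lay 0.82 above empty vector (adjusted p = 0.0787) and DHTKD1, an enzyme of lysine and tryptophan breakdown, 0.56 above it (adjusted p = 0.116). DHTKD1 read 7.56 and 7.67 in wild type, 8.55 and 8.68 with EAPP, and 8.02 and 8.09 with empty vector (1.00 ± 0.08 against wild type, adjusted p = 0.000288). Further named genes with large differences from empty vector were not called. RFPL4A lay 1.38 above empty vector (adjusted p = 0.116), DDIT4 differed from it by -0.84 (adjusted p = 0.0787) and MPC1 by -0.75 (adjusted p = 0.199). Of the called genes beyond empty vector on the lower side, CLDN1 lay below empty vector by -0.59 (adjusted p = 0.224) and ZNF204P by -0.57 (adjusted p = 0.590). At this number of arrays a difference between the mutant and empty vector was detectable in BDH1 alone, which does not show that the others are alike.

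Promoter sequences were compared next, since KLF11 is known to bind the elements CCCCGC and CCCCAC. RefSeq windows on GRCh38.p14, from 250 bases before to 50 after a listed start, were available for 123 of the 140 higher genes (87.9%) and 282 of the 336 lower genes (83.9%). Both strands were searched. The windows below belong to the gene with the largest rise, which has 2 listed starts, and to the 4 genes in each direction with the largest differences among those with 1 listed start. Capitals mark the matches to CCCCGC or CCCCAC, or to GCGGGG or GTGGGG where the match is on the other strand.

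BDH1 start 1, chr3:197573294-197573593, minus strand: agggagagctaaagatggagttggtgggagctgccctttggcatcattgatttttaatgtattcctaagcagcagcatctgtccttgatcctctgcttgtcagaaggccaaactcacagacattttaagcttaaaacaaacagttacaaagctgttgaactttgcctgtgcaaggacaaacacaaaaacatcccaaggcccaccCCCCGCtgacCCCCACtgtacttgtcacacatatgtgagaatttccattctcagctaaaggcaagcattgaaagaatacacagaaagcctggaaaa
BDH1 start 2, chr3:197555919-197556218, minus strand: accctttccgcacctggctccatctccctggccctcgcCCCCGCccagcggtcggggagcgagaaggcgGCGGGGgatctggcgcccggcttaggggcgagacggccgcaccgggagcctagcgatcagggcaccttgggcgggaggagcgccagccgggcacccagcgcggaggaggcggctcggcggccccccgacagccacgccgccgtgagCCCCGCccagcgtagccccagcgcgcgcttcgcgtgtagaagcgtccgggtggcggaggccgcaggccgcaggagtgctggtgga
ALDH6A1, chr14:74084404-74084703, minus strand: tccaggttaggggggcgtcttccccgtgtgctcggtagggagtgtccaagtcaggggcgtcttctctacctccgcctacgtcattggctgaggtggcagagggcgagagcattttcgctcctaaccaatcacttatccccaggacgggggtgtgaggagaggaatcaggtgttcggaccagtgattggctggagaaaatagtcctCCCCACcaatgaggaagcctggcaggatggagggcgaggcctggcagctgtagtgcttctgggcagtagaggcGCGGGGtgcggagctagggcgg
SFXN2, chr10:102714386-102714685, plus strand: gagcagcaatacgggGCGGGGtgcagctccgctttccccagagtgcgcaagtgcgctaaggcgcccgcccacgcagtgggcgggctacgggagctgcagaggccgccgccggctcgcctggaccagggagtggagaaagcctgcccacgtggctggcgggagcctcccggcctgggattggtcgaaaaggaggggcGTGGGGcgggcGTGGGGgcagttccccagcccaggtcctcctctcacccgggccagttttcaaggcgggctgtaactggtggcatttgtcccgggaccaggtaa
SLC2A1, chr1:42958819-42959118, minus strand: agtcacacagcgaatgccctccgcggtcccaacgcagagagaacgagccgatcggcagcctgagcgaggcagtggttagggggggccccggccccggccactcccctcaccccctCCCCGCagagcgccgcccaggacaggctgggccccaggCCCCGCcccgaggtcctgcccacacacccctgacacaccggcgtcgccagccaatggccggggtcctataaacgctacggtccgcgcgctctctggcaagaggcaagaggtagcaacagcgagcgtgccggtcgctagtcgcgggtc
BCKDHB, chr6:80106421-80106720, plus strand: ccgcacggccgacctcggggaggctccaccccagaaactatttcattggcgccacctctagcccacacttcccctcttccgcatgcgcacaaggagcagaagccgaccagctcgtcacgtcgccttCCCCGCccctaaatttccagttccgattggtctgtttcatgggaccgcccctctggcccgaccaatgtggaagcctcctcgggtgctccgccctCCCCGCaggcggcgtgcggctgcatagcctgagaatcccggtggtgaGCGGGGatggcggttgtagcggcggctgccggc
SPATA17, chr1:217631094-217631393, plus strand: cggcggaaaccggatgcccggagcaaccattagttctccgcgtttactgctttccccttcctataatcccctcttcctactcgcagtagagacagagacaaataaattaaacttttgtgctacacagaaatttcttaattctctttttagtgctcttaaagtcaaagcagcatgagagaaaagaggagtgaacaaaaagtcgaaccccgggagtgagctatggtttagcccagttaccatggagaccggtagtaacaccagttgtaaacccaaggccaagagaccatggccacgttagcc
DNAI3, chr1:85062077-85062376, plus strand: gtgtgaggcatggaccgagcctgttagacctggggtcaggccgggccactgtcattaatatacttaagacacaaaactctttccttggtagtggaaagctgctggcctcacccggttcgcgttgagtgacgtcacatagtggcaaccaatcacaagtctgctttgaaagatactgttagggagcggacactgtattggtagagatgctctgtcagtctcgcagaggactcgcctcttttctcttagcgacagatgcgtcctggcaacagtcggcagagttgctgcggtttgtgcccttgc
LMBRD2, chr5:36151838-36152137, minus strand: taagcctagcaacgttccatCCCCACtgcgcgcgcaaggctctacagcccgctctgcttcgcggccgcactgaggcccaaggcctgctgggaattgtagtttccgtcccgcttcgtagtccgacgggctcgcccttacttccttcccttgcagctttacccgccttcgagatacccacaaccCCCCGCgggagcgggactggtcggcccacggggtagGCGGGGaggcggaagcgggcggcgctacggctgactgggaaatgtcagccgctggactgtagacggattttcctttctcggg
CEP162, chr6:84227594-84227893, minus strand: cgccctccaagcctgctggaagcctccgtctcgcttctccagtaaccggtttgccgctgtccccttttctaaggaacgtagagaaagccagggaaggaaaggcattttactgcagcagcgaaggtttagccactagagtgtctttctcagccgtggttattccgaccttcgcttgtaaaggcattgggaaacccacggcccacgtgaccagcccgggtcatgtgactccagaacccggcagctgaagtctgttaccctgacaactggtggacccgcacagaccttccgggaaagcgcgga

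All windows of the higher genes shown hold 2 or 3 matches. Of the lower genes shown, LMBRD2 has 3 matches, while SPATA17, DNAI3 and CEP162 have 0. A match is a run of letters and not a measured binding site, and no match says only that these letters are not in the window.

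CCCCGC was found in 134 of 184 windows of higher genes (72.8%) and in 142 of 370 windows of lower genes (38.4%). The share was 41.6% over all 35116 windows of the RefSeq table, 53.5% over the windows of the measured protein-coding genes, and 63.6% over those of protein-coding genes above the median level. CCCCAC was found in 46.2% of windows of higher genes, in 24.9% of those of lower genes and in 33.3% of all windows. For the measured protein-coding genes the share was 36.6%, and for those above the median level 37.7%. Either element was present in 85.9% of windows of higher genes, 51.1% of those of lower genes and 57.15% of all windows. Measured protein-coding genes had either element in 67.5% of windows, and those above the median level in 75%.

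Base composition moved with these shares. The median GC content of the windows was 68.8% for higher genes, 58.7% for lower genes and 62.7% for measured protein-coding genes. Among windows with at least 65% GC, either element was present in 96.0% for higher genes, 81.8% for lower genes and 91.7% for protein-coding genes. Among windows under 65% GC the shares were 65%, 43.0% and 49.3%. The part of base composition in the difference was not tested.

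Some genes have a neighbour that starts close by on the opposite strand and runs the other way. Such a divergent start within 1000 bases was listed for 121 of 282 lower genes (42.9%) and 42 of 123 higher genes (34.1%). Among measured protein-coding genes the share was 23.1%, and among those above the median level 30.7%. The neighbours of lower genes that were themselves measured numbered 77, of which 14 were lower and 0 higher, with a median difference of -0.21. Over all genes 1.83% were lower and 0.762% higher. The 14 are 7 pairs in which both genes were lower, each pair counted from both ends, so that genes chosen as lower count as neighbours of each other. At an adjusted p under 0.05 with no fold, 24 of the 77 were lower and 1 higher. These 24 include the 14 that were chosen as lower. Over all 18377 genes, 1102 were lower and 930 higher at that threshold. For the higher genes 16 neighbours were measured, 0 were called and the median was 0.20. Divergence was examined after the called genes had been seen.

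Among the 7 pairs, KIAA0825 and SLF1, whose starts lie 65 bases apart, differed by -2.00 and -0.63. FAM229B and TUBE1, a tubulin of the centriole, start 109 bases apart and differed by -1.28 and -0.89. EAF2 and IQCB1, a ciliary protein, start 149 bases apart and differed by -1.12 and -0.74. EFCAB7 and ITGB3BP, FBXO8 and CEP44, ASTE1 and NEK11, and ZNF382 and ZNF529 make up the others. Over all 18377 genes, 930 were higher and 1102 lower at an adjusted p under 0.05 with no fold. Of the 16 neighbours of higher genes, 5 were higher at that adjusted p but short of the fold, and 0 were lower. POLE, a DNA polymerase subunit that starts 245 bases from PXMP2, had the largest such difference (0.55, adjusted p = 0.00198). Others lay near 0. CENPQ, which starts 117 bases from the higher gene MMUT, differed by 0.08 (adjusted p = 0.729), and RUVBL2, 139 bases from GYS1, by 0.08 (adjusted p = 0.567).

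**Figure D5:**
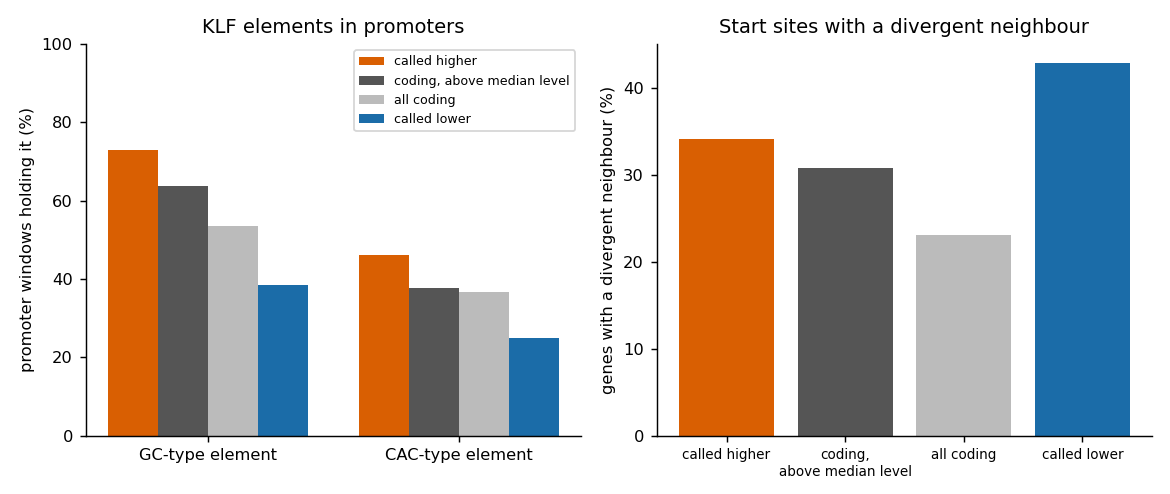
Left, share of promoter windows that hold the GC-type element (CCCCGC) or the CAC-type element (CCCCAC), for genes called higher (orange), protein-coding genes above the median level (dark grey), all measured protein-coding genes (light grey) and genes called lower (blue). Right, share of genes of the same sets with a divergent start within 1000 bases, which is 34.1% for higher and 42.9% for lower genes.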

How the data were processed

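Expression in Panc1 cells was measured on 10 Affymetrix Human Gene 1.0 ST arrays. The authors subtracted background and normalized by Robust Multiarray Analysis, and their processing notes name Partek 6.6. The deposited numbers are log2 expression levels and were used unchanged. Gene symbols came from the array's platform annotation, whose genome build no source used here gives. Of 28869 clusters, 7908 without a symbol were left out, 19229 carry 1 symbol and 1732 several, which were tested but not named. Symbols were matched to RefSeq by gene number in 19198 clusters, which changed 0 names. Where several clusters read a gene, the brightest over 10 arrays stands for it. The number of arrays, 2 per group, limits the precision.

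limma 3.58.1 (R 4.3.3) fitted a mean for each of 5 groups to the 10 arrays (5 residual and 4.54 prior degrees of freedom), and p-values were adjusted by Benjamini-Hochberg over 20961 clusters. Errors are limma's moderated standard errors. The methods' threshold of 1.5 on the log2 scale and a plain t-test were alternatives. The methods name a t-test with a Bayes correction, which the plain test lacks. Named genes are the 12 largest called differences each way in which both EAPP arrays lay beyond both wild type arrays. Also named are the 4 called members with the smallest p in each list and key members of lists whether called or not. The 5 called genes farthest beyond empty vector complete the set. The members, the lists and this rule were chosen with earlier results of these data known. The test was tried on simulated data first.

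Promoter windows came from RefSeq tables on GRCh38.p14, with 35116 windows for 27305 genes, and all listed starts of a gene were used. Plots used Python 3.11.15 with matplotlib 3.10.9. Chromatin immunoprecipitation and qPCR of the study were not analysed here.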

Additional observations from a re-analysis of the deposited data

How the results depend on the processing

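With 2 arrays a group the counts depend on the threshold and on the estimate of spread. An absolute log2 difference of at least 1.5 left 2 higher and 14 lower clusters, and dropping the fold gave 1026 and 1228. A plain t-test on 2 against 2 arrays, without the Bayes correction that the study's methods name, called 0 and 0 after adjustment. At an unadjusted p it called 148 and 295. Leaving out 1 of the 4 arrays gave 160 to 186 higher and 230 to 489 lower clusters, the lowest count without KLF11 replicate 1 and the highest without KLF11-EAPP replicate 1. The fit then takes the spread of the lone array from the other groups. A fit on the 4 compared arrays gave 157 and 350, one with no moderation 134 and 250, and one with a variance trend 161 and 370. Centring each array on its median gave 121 and 433, quantile normalization 139 and 376, and cyclic loess 127 and 409, and these scalings moved the median of all clusters from 0.03 to 0.02 or nearer to 0. A fit with the replicate block gave 159 and 360, of which 158 and 360 were shared. The replicate numbers were not used as pairs in the main fit. The replicate deviations of EAPP and wild type correlated at 0.145, the highest of the 10 pairs of groups, and the lowest was -0.348. Whether arrays of different groups share a batch under other numbers was not tested. The replicate block ended the call of KGD4 among the 85 named genes. Of the 85 named genes 83 kept their sign under these alternatives. The exceptions, neither of them called in any setting, were TLE4, which ran from -0.4144 to 0.0706 when 1 array was left out (positive without KLF11-EAPP replicate 2), and DDIT4, which ran from -0.0005 (without KLF11 replicate 2) to 0.2458. Among the named genes 13 calls were lost without KLF11 replicate 1, 8 without KLF11-EAPP replicate 2, 5 without KLF11-EAPP replicate 1 and 2 without KLF11 replicate 2. The values hold no measure of background, so how far it limits dim clusters is unknown.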

Other observations

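Clusters without a gene symbol, which belong to no comparison above, were tested in the alternative that kept them. Of these 7908, 17 were higher and 21 lower with EAPP. That alternative adjusted over all 28869 clusters and called 173 higher and 370 lower in total. In the main fit 0.763% of the 20961 clusters with a symbol were higher and 1.75% lower.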
